A study of Homo sapiens with 8 samples.

Results

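RNA-seq of the hESC line H9, an established line of human embryonic stem cells, was used to follow 8 genes whose RNA was lost or nearly lost in cells that lack 1 copy of the endogenous retrovirus HERVH. The genes are SYT11, SEC14L4, AGBL4, CDYL2, PWWP3B, NCR1 and the long non-coding RNA genes LINC00654 and AGA-DT, and they are 8 of the 57773 genes in the count files. They were chosen by their counts, which were near 0 in both libraries of the HERVH element deleted cells, and for the lack of a known link to HERVH, so their low level in these cells is a description of how they were picked and carries no test. AGA-DT does not meet the wording of that choice, since it kept 22.9% of its WT level.

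The 4 conditions had 2 replicates each. WT cells were untreated H9 cells with an HA tag on the endogenous CHD7 gene (CHD7-HA). CHD7 knockout cells were untreated and carried the genotype CHD7 -/-. HERVH knockdown cells were wild type (CHD7-HA) cells treated for 24 h with LNA-GapmeRs, short modified antisense oligonucleotides that direct the cleavage of HERVH RNA. HERVH element deleted cells were untreated and lacked a single HERVH element on chromosome 2. Their labels do not say whether CHD7 was HA-tagged, but the authors measured CHD7 protein in such cells with an HA antibody too. By the authors' methods, lines edited with CRISPR-Cas9 were grown from picked colonies. This holds for the HA-tagged, the CHD7 knockout and the HERVH element deleted cells. The authors obtained 2 independent HERVH element deleted clones, but the labels do not say whether the replicates of any condition are separate clones. The p-values below therefore measure only the spread between these libraries. WT cells treated with a control GapmeR were not analysed here.

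HERVH is a family of endogenous retroviruses whose copies are transcribed at a high level in human pluripotent cells, and its long terminal repeats can act as promoters or enhancers of genes beside them. CHD7 is a chromatin remodeler that is found at enhancers. A deletion of 1 copy removes DNA at 1 place, whereas GapmeRs act on the RNA of many copies, and CHD7 knockout leaves the HERVH DNA as it is. The authors report that the deletion left the expression of most other HERVH copies unaffected. They also report depletion of further copies, which lie on the chromosomes that carry AGA-DT and CDYL2. The loss of RNA in deleted cells was therefore not limited to the deleted copy. The distance of those further copies from AGA-DT and CDYL2 was not tested. The 8 genes have unrelated products, from a vesicle protein to a receptor of natural killer cells.

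The designed sequences that define the deletion are shown first, because they fix where the DNA was removed. These are the parts of the guides that pair with DNA, each followed in the genome by an NGG PAM.

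5-prime guide: ttagaagtataccgaactca

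3-prime guide: cagcatccaacgatcacagc

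Each guide had 1 exact site in GRCh37, at chr2:210163938-210163957 and chr2:210169902-210169921, both on the plus strand, so the span from the first to the second guide is 5984 bp, and it holds 2 exact sites of the HERVH GapmeRs. None of the genes of the annotation used here overlapped this span, so the deletion itself cannot be checked in the gene counts. None of the 8 silenced genes lies on chromosome 2. With up to 3 mismatches beside an NGG PAM, the guides had 11 further sites in the genome, and none was within 500 kb of a silenced gene. Exact sites of the 3 HERVH GapmeRs numbered 1111 in the genome and 0 within the bodies of the silenced genes. NCR1 had such a site 7.06 kb away and 5 within 500 kb, AGBL4 had its nearest 320.7 kb away, and the other 6 genes had none within 500 kb. A GapmeR site marks a match of 16 bases and does not show that a copy of HERVH is transcribed there.

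Starts of the silenced genes are shown next, with CpG dinucleotides in capitals, so that genes lost together can be compared at their starts. SYT11, AGBL4 and AGA-DT each share a start region with a gene that is transcribed in the opposite direction. The bases between the annotated starts in GRCh37 are given in the direction of the silenced gene, for SYT11 and GON4L at chr1:155829192-155829357, for AGBL4 and ELAVL4 at chr1:50489627-50489700 and for AGA-DT and AGA at chr4:178363592-178363672.

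SYT11: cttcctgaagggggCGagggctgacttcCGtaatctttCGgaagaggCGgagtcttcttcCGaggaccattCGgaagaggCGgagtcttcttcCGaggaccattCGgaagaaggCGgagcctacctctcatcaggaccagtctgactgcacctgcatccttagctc

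AGBL4: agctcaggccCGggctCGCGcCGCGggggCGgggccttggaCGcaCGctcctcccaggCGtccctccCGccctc

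AGA-DT: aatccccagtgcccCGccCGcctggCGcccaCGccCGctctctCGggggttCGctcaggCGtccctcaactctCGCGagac

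Each of these stretches of 166, 74 and 81 bp holds 10 CpGs. LINC00654 and SEC14L4 have no such partner at their annotated starts in GRCh37. For them the 250 bases before the RefSeq start are shown, on GRCh38.p14 and in the direction of the gene. The RefSeq starts were not matched to those GRCh37 starts, and that of LINC00654 may be a different start of the gene.

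LINC00654: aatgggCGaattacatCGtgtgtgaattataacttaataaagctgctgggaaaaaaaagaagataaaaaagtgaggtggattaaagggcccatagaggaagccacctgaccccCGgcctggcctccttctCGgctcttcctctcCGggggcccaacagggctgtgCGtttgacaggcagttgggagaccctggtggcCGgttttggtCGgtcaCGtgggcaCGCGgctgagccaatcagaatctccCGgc

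SEC14L4: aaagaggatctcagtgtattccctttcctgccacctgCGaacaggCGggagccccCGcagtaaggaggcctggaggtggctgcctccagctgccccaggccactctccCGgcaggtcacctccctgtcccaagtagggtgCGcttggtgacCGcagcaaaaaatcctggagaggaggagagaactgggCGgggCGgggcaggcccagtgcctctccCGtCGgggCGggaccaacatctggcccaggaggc

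RefSeq windows from 250 bases before to 50 after the start were at hand for 6 of the 8 genes, that is all but CDYL2 and PWWP3B. In these windows the number of CpGs was 32 for AGBL4, 29 for AGA-DT, 22 for SYT11, 18 for SEC14L4, 14 for LINC00654 and 10 for NCR1, and the median of all 27305 such windows was 14. The silenced genes therefore do not share 1 level of CpG at their starts. The letters GGGCGG, read on both strands, were in 4 of the 6 windows and in 44.6% of all windows. CCAAT was in 1 of 6 against 35.7% of all, CACGTG in 1 of 6 against 7.43%, and TATAAA in 0 of 6 against 12%.

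Counts on genes ranged from 14802049 to 23156445 per library, so that 3 counts corresponded to between 0.128 and 0.219 CPM (normalized counts, corrected for library size by TMM). HERVH knockdown replicate 2 was the shallowest library, and 8.87% of its reads fell on its 10 most abundant genes against 4.09% to 5.08% in the other 7 libraries. Replicates of HERVH knockdown cells had a median SD of 0.25 in log2 CPM, and those of the other conditions 0.08 to 0.13. The level of CHD7 RNA in HERVH element deleted cells was 700.6 ± 14.2 CPM beside 650.3 ± 1.04 in WT and 197.3 ± 0.0351 in CHD7 knockout cells (SD, n = 2). DEGs are genes with an FDR below 0.01 over the 23474 genes tested and a change of at least 2-fold in edgeR's quasi-likelihood test. The summed level of 8 pluripotency genes was 5703 to 5814 CPM in WT and 5638 to 5714 CPM in HERVH element deleted cells and 0 of the 8 were DEGs. The summed level of 9 genes of differentiated cells was 4.06 to 7.72 CPM in WT and higher, 8.63 to 9.15 CPM, in deleted cells. FOXA2 gave the largest part of it, with 30 and 106 counts in WT against 93 and 94 in deleted cells. PAX6 had 38 and 36 against 75 and 42, while GATA4 had 3 and 3 against 0 and 0. In deleted cells 3 of the 9 were tested and 0 were DEGs. The part of this higher sum in the results below was not tested. For 6 neuronal genes the summed level was 50.1 to 53.8 CPM in WT and 54.0 to 58.9 CPM in deleted cells, again with 0 DEGs. 

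SYT11 (ENSG00000132718, chr1:155829358-155854990, plus strand) encodes a synaptotagmin of vesicle traffic that does not act as a calcium sensor. It had 488 and 504 counts in WT, 667 and 468 with CHD7 knocked out, 396 and 327 after HERVH knockdown, and 18 and 29 in the deleted cells. Both deleted libraries lay far below the other 6. WT cells had 23.1 ± 0.734 CPM and deleted cells 1.17 ± 0.562 CPM (SD, n = 2), 20.6-fold lower by the pooled counts (95% exact interval 15.3 to 28.2, which here as below covers counting error only). SYT11 had the highest WT level of the 8, also per length with 4.45 CPM per kb of exon, and it is the gene for which the remaining level could be measured best.

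SEC14L4 (ENSG00000133488, chr22:30884889-30901698, minus strand) encodes a SEC14-like protein, a family that binds lipids. It had 40 and 52 counts in WT, 67 and 66 with CHD7 knocked out, 27 and 23 after HERVH knockdown, and 1 and 1 in the deleted cells. The deleted libraries were the lowest and the CHD7 knockout libraries the highest. Between them lay WT at 1.847 and 2.432 CPM and HERVH knockdown, close below, at 1.478 and 1.675 CPM. The share of all genes with such an order was not counted. The level was 2.14 ± 0.414 CPM in WT (SD, n = 2) and 0.0484 ± 0.00792 in deleted cells, a ratio of 44.8 with a wide counting interval of 12.1 to 375.6.

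AGBL4 (ENSG00000186094, chr1:48998526-50489626, minus strand) encodes a cytosolic carboxypeptidase that trims glutamates from tubulin, and with 1491 kb it is the longest of the 8 genes. It had 34 and 36 counts in WT, 75 and 64 with CHD7 knocked out, 10 and 5 after HERVH knockdown, and 1 and 1 in the deleted cells. Among the 8 genes it was the lowest relative to WT in HERVH knockdown cells, with 28.0% of the WT mean. Its level in deleted cells was 2.97% of WT, a ratio of 34.1 (9.09 to 287.1).

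CDYL2 (ENSG00000166446, chr16:80631804-80838495, minus strand) encodes a chromodomain protein that binds methylated histone H3. It had 141 and 136 counts in WT, 204 and 200 with CHD7 knocked out, 65 and 70 after HERVH knockdown, and 9 and 11 in the deleted cells. The 4 conditions did not overlap in CPM, and the share of all genes with this pattern was not counted. The level was 6.44 ± 0.106 CPM (SD, n = 2) in WT and 0.489 ± 0.148 in deleted cells, 13.5-fold lower (8.57 to 22.4), with 5.98% and 9.22% of the WT mean left in the deleted libraries.

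PWWP3B (ENSG00000157502, chrX:105412298-105452949, plus strand) encodes a protein with a PWWP domain, a fold that reads methylated histone H3. It had 13 and 20 counts in WT, 92 and 155 with CHD7 knocked out, 5 and 7 after HERVH knockdown, and 0 and 0 in the deleted cells. It spans the widest range of the 8 genes, from no counts in deleted cells to 819.8% of the WT mean in CHD7 knockout cells. WT cells had 0.768 ± 0.237 CPM (SD, n = 2), and 0 counts allow up to 0.0716 CPM over both deleted libraries, taken as 3 counts, so that the level was at least 10.7-fold lower.

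NCR1 (ENSG00000189430, chr19:55417506-55427508, plus strand) encodes NKp46, an activating receptor of natural killer cells. It had 11 and 10 counts in WT, 9 and 4 with CHD7 knocked out, 3 and 6 after HERVH knockdown, and 0 and 0 in the deleted cells. The deleted libraries were the only ones at 0, but the WT level of 0.488 ± 0.0285 CPM (SD, n = 2) was so low that the fall was measured only as at least 6.82-fold. NCR1 did not pass the filter on low counts and was not tested. Of 11 lymphoid marker genes, GZMB and KLRF1 had 0 counts in both WT libraries and PTPRC had 1 and 4. IL2RB, KLRB1 and CD247 had more WT counts than NCR1, with 64 and 68, 44 and 27, and 28 and 18. The summed level of the 11 was 31.1 to 34.6 CPM in WT and 32.5 to 35.0 CPM in deleted cells. NCAM1, a lymphoid marker that neural and stem cells also express, gave most of this sum, with 592 and 529 counts in WT against 669 and 469 in deleted cells.

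LINC00654 (ENSG00000205181, chr20:5463382-5507355, minus strand) is a long non-coding RNA gene. It had 130 and 150 counts in WT, 80 and 61 with CHD7 knocked out, 117 and 78 after HERVH knockdown, and 3 and 3 in the deleted cells. It was the lowest of the 6 genes that kept any counts, with 2.23% of the WT level, and the pooled counts were 45.5-fold lower (20.6 to 124.9). Among the 7 tested genes it alone was lower in both CHD7 knockout libraries than in either WT library.

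AGA-DT (ENSG00000250131, chr4:178363673-178602535, plus strand) is a long non-coding RNA gene that starts beside AGA and runs away from it. It had 52 and 39 counts in WT, 63 and 53 with CHD7 knocked out, 33 and 28 after HERVH knockdown, and 10 and 10 in the deleted cells. The deleted libraries were below the other 6, but with 2.11 ± 0.408 CPM (SD, n = 2) in WT and 0.484 ± 0.0792 in deleted cells the gene was 4.43-fold lower (2.71 to 7.60). This is a partial loss, and the share left, 22.9% of the WT mean, was the highest of the 8 genes. Its counting interval was 13.2% to 36.9% of WT. The limit that 0 counts allow for NCR1, 14.7%, lies within this interval.

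**Figure D1:**
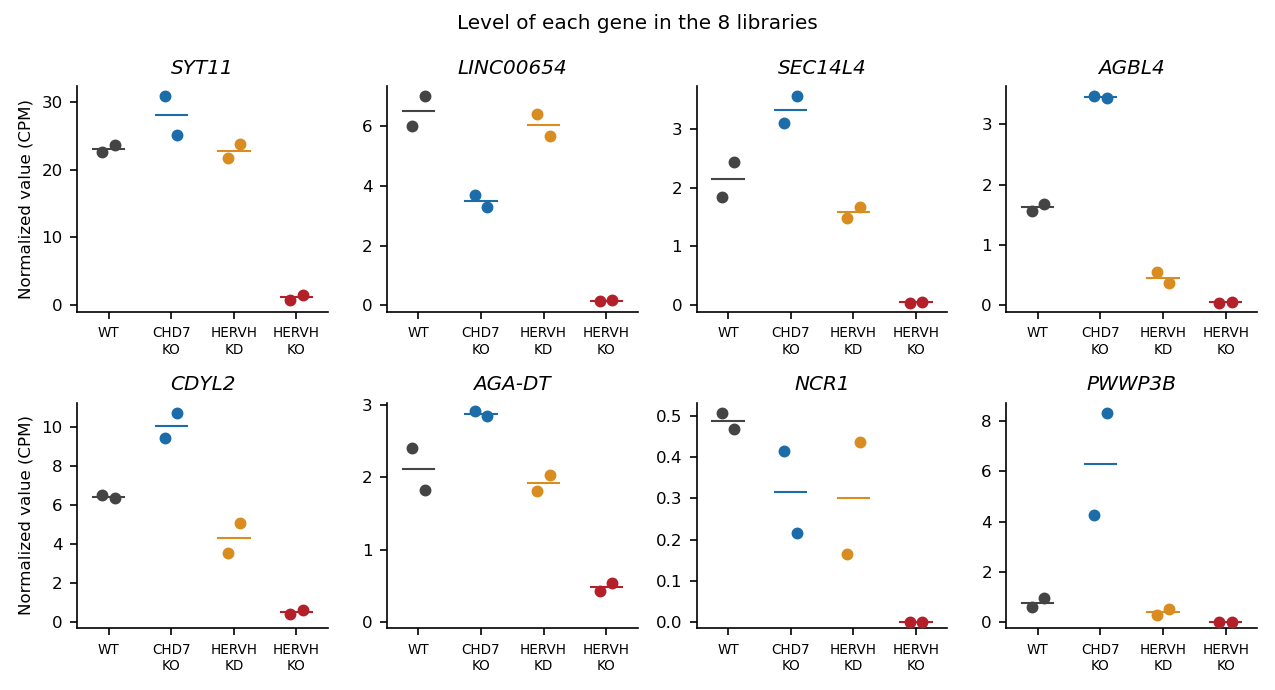
Level of each of the 8 genes in the 8 libraries, in CPM on linear axes that differ between panels. Points are libraries and lines are the means of 2 replicates, and in every panel both HERVH element deleted (HERVH KO) libraries are the lowest.

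Both HERVH element deleted libraries were below the other 6 for all 8 genes, as were 890 (3.79%) of the 23474 genes tested. This pattern follows from how the 8 genes were chosen. Relative to the WT mean, the 8 genes were at 0% to 22.9% in deleted cells with a median of 2.62%, and 7 of 8 were below 10% and 5 below 5%. In HERVH knockdown cells they were at 28.0% to 98.7% with a median of 70.5%, and in CHD7 knockout cells at 53.6% to 819.8% with a median of 145.9%. No gene of the 8 was below 10% of WT in CHD7 knockout or HERVH knockdown cells.

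**Figure D2:**
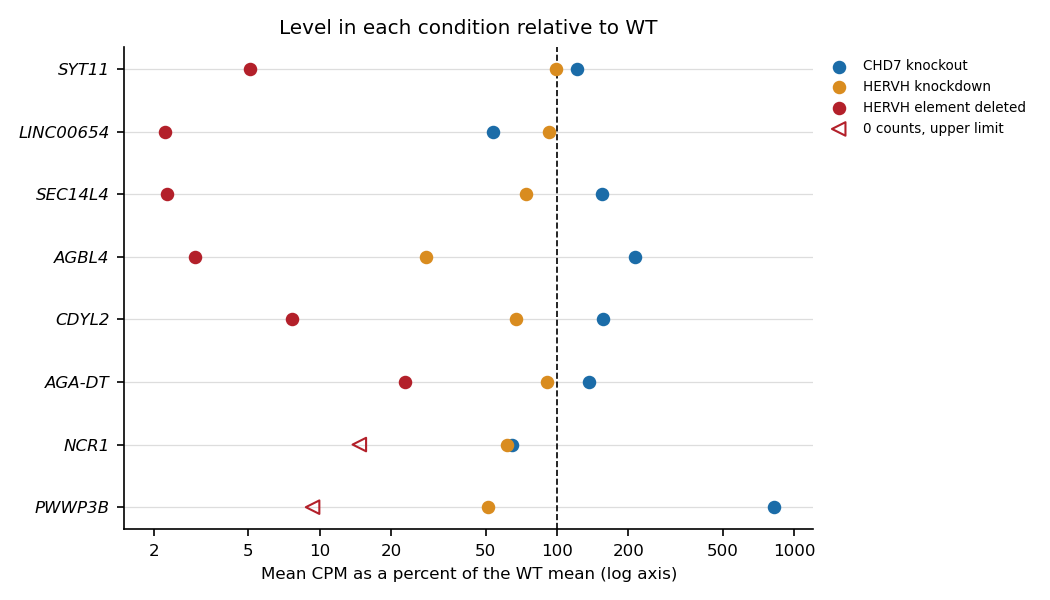
Mean level of each gene in cells without CHD7, after HERVH knockdown and in the deleted cells as a percent of the WT mean, on a log axis, with n = 2 per condition. Open triangles give the upper limit that 0 counts allow, 14.7% for NCR1 and 9.32% for PWWP3B, and the deleted cells are the leftmost symbol for every gene.

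To describe how often a gene is lost all or none, genes with at least 20 counts in each WT library and at most 5% of the WT mean in each library of a condition were counted. In HERVH element deleted cells 7 of 17027 genes met this limit, or 0.0411%, and 3 of them were LINC00654, SEC14L4 and AGBL4. SYT11 and CDYL2 were above 5% in at least 1 library, and NCR1 and PWWP3B had too few WT counts. In CHD7 knockout cells 3 genes (0.0176%) met the limit and in HERVH knockdown cells 0, and none of these was among the 8 genes. At a limit of 10% the numbers were 11, 7 and 2, and with at least 50 counts in each WT library the number in deleted cells was 1. The opposite pattern, a gene at most at 5% in WT, was met by 0 genes in deleted cells, 10 (0.0591%) in CHD7 knockout cells and 1 (0.00636%) in HERVH knockdown cells.

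Besides the 3 silenced genes, 4 genes showed all-or-none loss in HERVH element deleted cells. ZNF726, a zinc finger gene on chromosome 19, had 42 and 46 counts in WT against 2 and 1 in deleted cells. SLITRK2, a neuronal transmembrane gene on chromosome X, had 26 and 28 counts in WT against 0 and 1 in deleted cells, with 61 and 75 in CHD7 knockout cells. CYP4F22, a cytochrome P450 gene on chromosome 19, had 30 and 43 counts in WT, 1 and 0 in deleted cells and also 3 and 2 in CHD7 knockout cells. The pseudogene PKP4P1, which lies on chromosome 2 at a distance of 118.1 kb from the deleted span, had 29 and 26 counts in WT against 0 and 0 in deleted cells.

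The next comparison asks whether the 8 genes also changed when CHD7 was lost. It shares the WT libraries with the contrast that chose the genes. Of the 7 tested genes 1 was a DEG in CHD7 knockout cells, PWWP3B, against 0.571% of all genes tested. PWWP3B rose by a log2 fold change of 3.02 (edgeR, SE 0.48, FDR = 0.00609). With any 1 of the 4 libraries left out the log2 fold change was 2.48 to 3.44, and its FDR of 0.0144 to 0.114 did not pass. In such a fit 1 arm holds a single library, which is assumed to vary like the other groups. For AGBL4 the log2 fold change was 1.08 (SE 0.39, FDR = 0.247) and for CDYL2 it was 0.65 (SE 0.27, FDR = 0.384), neither of which passed the edgeR test. LINC00654 had a value of the opposite sign, -0.90 (SE 0.28, FDR = 0.158), and likewise did not pass. SEC14L4, AGA-DT and SYT11 had log2 fold changes of 0.63, 0.45 and 0.28 with FDRs of 0.608 to 0.787 (edgeR). The median over the 7 genes was 0.63, with 6 above 0, and -0.01 over all genes tested. NCR1 was at 64.7% of WT, 0.315 ± 0.142 CPM (SD, n = 2).

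Genes around PWWP3B were also higher in CHD7 knockout cells. Within 500 kb of it 4 genes were tested, all 4 had positive log2 fold changes with a median of 1.44, and 1 of them was a DEG, IL1RAPL2, at 2.998 (edgeR, SE 0.52, FDR = 0.00962). IL1RAPL2 had 8 and 8 counts in WT against 55 and 65 in CHD7 knockout cells. It passed the filter on low counts only through the CHD7 knockout libraries, so its rise there was in part a condition of its being tested. NRK and RADX, the nearest genes tested on either side, had log2 fold changes of 0.98 and 1.08, both with an FDR of 0.0246 (edgeR), and RNF128 had 1.80 (FDR = 0.105). The median of the 842 genes tested on chromosome X was 0.01. In HERVH element deleted cells the 4 genes had a median of -0.08 and 0 were DEGs, with 272 and 206 counts for NRK and 188 and 167 for RADX against 255 and 238, and 188 and 218, in WT. Around SYT11, 37 of 38 genes tested had positive log2 fold changes in CHD7 knockout cells, with a median of 0.51 and 0 DEGs, beside 0.28 for SYT11 itself. On the whole of chromosome 1 the median was 0.17 over 2360 genes. The part of these regional shifts in the values of PWWP3B and SYT11 was not tested.

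In HERVH knockdown cells, 0 of the 7 tested genes were DEGs by edgeR and also by DESeq2, against 0.217% of all genes tested, and 1 had an unadjusted p below 0.05, as did 19.0% of all genes tested. That gene was AGBL4, whose log2 fold change was -1.80 (edgeR quasi-likelihood test, SE 0.47, unadjusted p = 0.00197, FDR = 0.0657). PWWP3B followed at -1.001 (SE 0.61, FDR = 0.397), then CDYL2 at -0.58 (SE 0.29, FDR = 0.292) and SEC14L4 at -0.44 (SE 0.38, FDR = 0.562). AGA-DT, LINC00654 and SYT11 were at -0.14, -0.10 and -0.02, with FDRs of 0.874 to 0.976 (edgeR). All 7 values were below 0 with a median of -0.44, while the median of all genes tested was 0.04. For AGA-DT, LINC00654 and SYT11 the sign turned when 1 WT library was left out. This comparison shares the WT libraries with the choice of the genes too. NCR1 was at 61.6% of WT, 0.301 ± 0.193 CPM (SD, n = 2).

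HERVH knockdown and CHD7 knockout cells were compared directly, because this comparison shares no library with the contrast that chose the genes. Here 2 of the 7 tested genes were DEGs, both lower in HERVH knockdown cells, against 1.86% of all genes tested that were lower and 2.66% in either direction. PWWP3B differed by a log2 fold change of -4.02 (edgeR, SE 0.55, FDR = 0.00094) and AGBL4 by -2.88 (SE 0.46, FDR = 0.0021). Without CHD7 knockout replicate 2 the log2 fold change of PWWP3B was -3.50 with an FDR of 0.0155. AGBL4 had an FDR of 0.0163 without CHD7 knockout replicate 1, 0.0158 without replicate 2 and 0.0119 in a fit of the 4 libraries alone, none of which passed, while its log2 fold change in these fits was -2.89, -2.92 and -2.88. CDYL2 had a log2 fold change of -1.23 (SE 0.29, FDR = 0.0175) and was a DEG by DESeq2 (adjusted p = 0.00399). SEC14L4 was at -1.08 (SE 0.38, FDR = 0.0906), AGA-DT at -0.59 and SYT11 at -0.30, and these did not pass (edgeR, FDR of 0.345 and 0.446 for the latter). LINC00654 was the exception in sign, with 0.79 (SE 0.28, FDR = 0.0984). Within 500 kb of PWWP3B all 4 genes tested were lower too, with a median log2 fold change of -1.35. Of these, NRK at -1.115 and IL1RAPL2 at -3.58 were DEGs. ELAVL4, which starts beside AGBL4, was also a DEG, at -7.81. It had 0 and 0 counts in HERVH knockdown cells against 38 and 20 in CHD7 knockout cells, so the size of this difference is not measured. IL1RAPL2 and ELAVL4 passed the filter on low counts only through the CHD7 knockout libraries. The part of these regional shifts in the values of PWWP3B and AGBL4 was not tested.

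**Figure D3:**
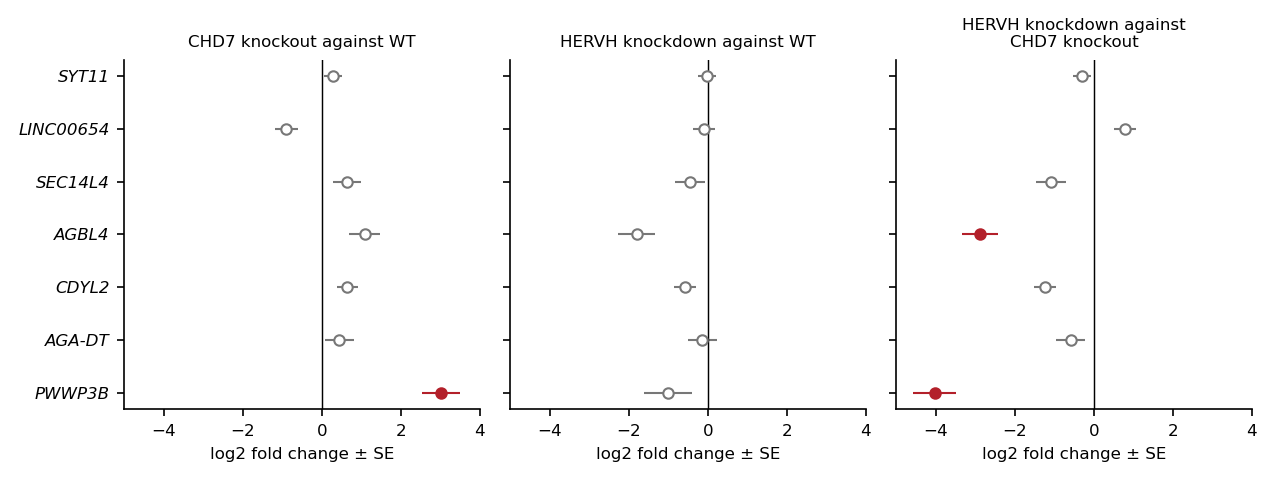
Log2 fold changes ± SE of the 7 tested genes in CHD7 knockout against WT, HERVH knockdown against WT and HERVH knockdown against CHD7 knockout, from edgeR with 2 libraries per condition. Filled red points are DEGs: PWWP3B in the first comparison, none in the second, and AGBL4 and PWWP3B in the third.

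Genes beside the silenced genes were then followed in HERVH element deleted cells, since they were not used in the choice. GON4L, whose start is separated by 166 bp from that of SYT11, had 2957 and 2838 counts in WT against 3211 and 2451 in deleted cells. Its log2 fold change was 0.00 (edgeR, SE 0.14, FDR = 1.0), next to the 20.6-fold lower level of SYT11. AGA, which encodes the lysosomal enzyme aspartylglucosaminidase, had 148 and 128 counts in WT against 132 and 115 in deleted cells, at -0.12 (edgeR, SE 0.25, FDR = 1.0). In CPM, GON4L was at 134.6 ± 2.70 in WT and 134.8 ± 3.56 in deleted cells, and AGA at 6.41 ± 0.599 and 5.92 ± 0.397 (SD, n = 2), so that both differed by less than the SD of the WT replicates. ELAVL4, which encodes an RNA-binding protein of neurons and has 74 bp between its start and that of AGBL4, had 5 and 6 counts in WT, 38 and 20 with CHD7 knocked out, 0 and 0 after HERVH knockdown, and 1 and 0 in the deleted cells. ELAVL4 passed the filter on low counts only through the CHD7 knockout libraries, so its being highest there is no separate likeness to AGBL4. It was also below WT in both HERVH conditions, as AGBL4 was, at counts close to 0. Its log2 fold change in deleted cells was -3.13 (edgeR, SE 1.20, FDR = 1.0). BEND5, a gene inside AGBL4, had 62 and 64 counts in WT against 61 and 56 in deleted cells.

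**Figure D4:**
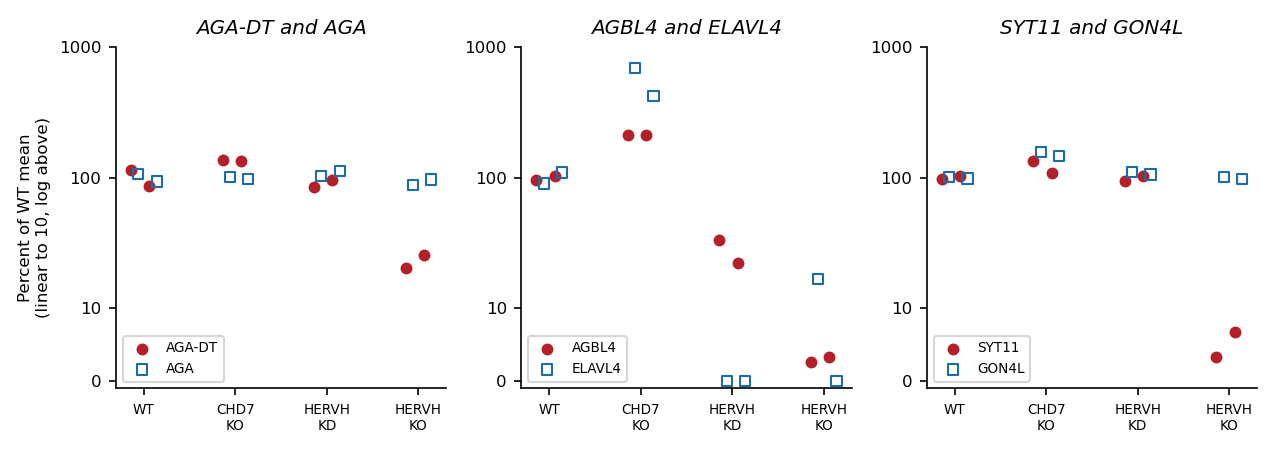
Levels of AGA-DT, AGBL4 and SYT11 (red circles) and of the partner genes AGA, ELAVL4 and GON4L (blue squares) in the 8 libraries, as a percent of each gene's WT mean, on an axis that is linear to 10 and log above. In HERVH element deleted cells (HERVH KO) AGA and GON4L stay near 100% while AGA-DT and SYT11 fall, and ELAVL4, with 1 and 0 counts, falls with AGBL4.

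Within 500 kb of the 8 genes, 134 other genes were tested in HERVH element deleted cells. None was a DEG by edgeR or DESeq2, against 0.0298% of all genes tested in this comparison. That share is 7 genes, of which 5 are silenced genes. With a share this low, 0 DEGs among 134 genes does not show that neighbors were spared. An unadjusted edgeR p below 0.05 was found for 6 of them, where 2.63% of all genes had one. The median log2 fold change was -0.07 with 78 of 134 below 0. Those 6 were SYT5, CDC42EP5 and PTPRH near NCR1, HORMAD2-AS1 and ENSG00000273350 near SEC14L4, and ELAVL4. SYT5, a synaptotagmin gene, had the smallest p, with 102 and 48 counts in WT against 13 and 12 in deleted cells and a log2 fold change of -2.53 (FDR = 0.466, edgeR). It also had 11 and 15 counts in CHD7 knockout cells, where its log2 fold change was -2.40 (FDR = 0.0445). The nearest genes tested beside LINC00654 were PROKR2 at -0.70 and GPCPD1 at 0.10, those beside SEC14L4 were MTFP1 at 0.18 and SEC14L6 at -0.84, and those beside CDYL2 were MAF, 997.2 kb away and so not among the 134, at -0.03 and CMC2 at 0.10 in log2 fold change. On the side of NCR1 away from GP6-AS1 the nearest was CDC42EP5, with 30 and 26 counts in WT against 12 and 4 in deleted cells and a log2 fold change of -1.78 (edgeR, FDR = 1.0). RIT1 beside SYT11 was at -0.21, SPATA6 beside AGBL4 at -0.13, LINC01098 beside AGA-DT at 0.28 and GP6-AS1 beside NCR1 at -0.37, and none of these passed the edgeR test.

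**Figure D5:**
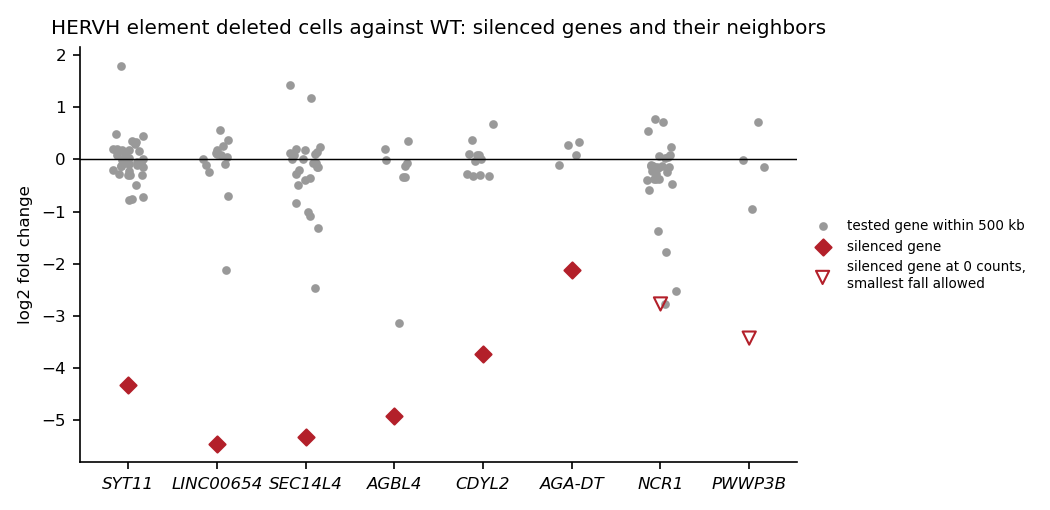
Log2 fold changes in HERVH element deleted cells against WT of the silenced genes (red) and of the 134 tested genes within 500 kb of them (gray), in columns by silenced gene. Open triangles give the smallest fall that 0 counts allow for NCR1 and PWWP3B, and most gray points lie close to 0, with a median of -0.07.

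Relatives of the silenced genes, that is members of the same families or of the same enzyme systems, were examined to see whether the loss extended to them. Of 58 listed genes 56 were found and 45 tested. In HERVH element deleted cells 0 were DEGs by edgeR or DESeq2, beside 0.0298% of all genes tested, most of them silenced genes. With a share this low, 0 does not show that relatives were spared. An unadjusted edgeR p below 0.05 was found for 3 relatives, beside 2.63% of all genes tested. The median log2 fold change of the 45 was -0.04. The summed level of 16 other synaptotagmins was 318.3 to 340.7 CPM in WT and 321.7 to 322.2 CPM in deleted cells, and that of 7 SEC14-like and related genes was 137.0 to 140.8 and 123.8 to 125.1 CPM. In CHD7 knockout cells 1 relative was a DEG, beside 0.571% of all genes, namely SYT4, a synaptotagmin of neurosecretory vesicles, with 29 and 14 counts in WT against 189 and 173 in knockout cells (log2 fold change 3.17, FDR = 0.00116, edgeR). In HERVH knockdown cells 1 was a DEG, beside 0.217% of all genes, namely SYT7, a calcium sensor of exocytosis, at -1.50 (FDR = 0.00848). Between HERVH knockdown and CHD7 knockout cells 4 relatives were lower in the knockdown, beside 1.86% of all genes, namely SYT4, SYT7, SYT13 and the tubulin glutamylase gene TTLL6, with log2 fold changes of -2.16, -1.28, -1.15 and -1.61. SYT7 had 863 and 579 counts in WT against 514 and 358 in deleted cells, at -0.70 (FDR = 1.0, edgeR).

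The profiles of the silenced genes over the 8 libraries were also compared with those of other genes, by Pearson's r of log2 CPM with the mean standardized profile of the 7 tested genes. This is a description over 8 libraries of 4 conditions, and it is led by the deleted libraries that served to choose the genes. The silenced genes themselves had r of 0.896 (PWWP3B) to 0.998 (CDYL2). Each of them is part of the mean profile, so these values are high by construction and cannot be compared with those of other genes. The 5 other genes most like them were SLITRK2 (r = 0.972), ZNF726 (0.966), HSPA1A (0.965), PCDHGB4 (0.965) and STARD7-AS1 (0.957). HSPA1A, a heat shock gene whose reads can be shared with its near-identical copy HSPA1B, had 421 and 340 counts in WT against 45 and 25 in deleted cells, with 358 and 300 in CHD7 knockout and 185 and 213 in HERVH knockdown cells. PCDHGB4, a gene of the protocadherin gamma cluster, had 146 and 134 counts in WT, 279 and 256 with CHD7 knocked out, 114 and 96 after HERVH knockdown, and 50 and 43 in the deleted cells. STARD7-AS1 followed the shape at a small size, with 73 and 78 counts in WT against 59 and 54 in deleted cells.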

How the data were processed

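RNA-seq libraries of H9 cells in 4 conditions with 2 replicates each were analyzed, grouped by their labels. Per the labels and methods, rRNA was removed and the libraries kept strand, and the authors used STAR for mapping to hg19 and HTSeq-count with Ensembl gene models for counting. The deposited values are these read counts, whole numbers without normalization, for 57773 genes. The versions of these tools and the strand setting of the counting are not given in the sources used here. Between 34.9% and 42.5% of the reads assessed were on no gene and 3.81% to 4.75% were ambiguous between genes, and both were left out.

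The 8 genes, the relatives, the markers and the tests were chosen with earlier results of these data known. Counts were scaled by TMM, and genes passing filterByExpr (23474) entered edgeR's quasi-likelihood test fitted jointly to the 8 libraries by group, which left 4 residual degrees of freedom (edgeR 4.0.16, limma 3.58.1, DESeq2 1.42.0 and R 4.3.3, with Python 3.11.15, pandas 2.3.3, numpy 2.4.6, scipy 1.17.1 and matplotlib 3.10.9). FDRs are Benjamini-Hochberg values over all genes tested. Log2 CPM used a prior count of 2. A group at 0 was given 3 counts over both libraries. Intervals of ratios are exact Clopper-Pearson intervals at 95%, and they and the floor cover counting error only. At the depth of these libraries, genes with few counts such as NCR1 have wide limits. The procedure was tested on simulated data of HERVH knockdown against WT, where it recovered 199 of 200 changed genes and called 2 unchanged genes among 22099 genes tested. The changed genes were drawn only from genes with higher counts and were changed at least 4-fold. This recovery therefore does not carry over to smaller changes or to genes with few counts such as PWWP3B and AGBL4.

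Genes were placed with an annotation on GRCh37, which held 55538 of the genes (96.1%). Neighbors were the genes tested within 500 kb, and partners started within 1000 bp on the other strand. Guides and GapmeRs were matched to GRCh37, and promoter windows came from RefSeq on GRCh38.p14. The text names the 8 genes, the nearest genes tested, relatives that were DEGs, genes with all-or-none loss and the 5 genes with the most similar profile, and IL1RAPL2, RNF128, BEND5, HSPA1A's copy and the neighbors with a low p were named after their values were seen. Alternatives were RLE scaling, plain library totals, DESeq2's Wald test, other filters, fits of the 4 libraries compared, an FDR below 0.05, the replicate number as a block and each library left out in turn.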

Additional observations from a re-analysis of the deposited data

How the results depend on the processing

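The number of silenced genes that were DEGs was 1 in CHD7 knockout cells and 0 to 1 when 1 library was left out, 0 in HERVH knockdown cells in each alternative run, and 2 between HERVH knockdown and CHD7 knockout cells, with 0 to 3 when 1 library was left out and 1 in a fit of the 4 libraries compared. Without a filter on low counts, 1 gene near the silenced genes and 1 relative were DEGs in HERVH element deleted cells, SYT5 in both cases. The number of genes with all-or-none loss at a limit of 10% was 11 in deleted, 7 in CHD7 knockout and 2 in HERVH knockdown cells, and 1 in deleted cells with at least 50 counts in each WT library. With 1 library left out, the log2 fold changes in HERVH knockdown cells ranged from -0.10 to 0.0133 for SYT11, from -0.25 to 0.0114 for LINC00654 and from -0.32 to 0.0713 for AGA-DT. They were above 0 without WT replicate 2 for SYT11 and LINC00654 and without WT replicate 1 for AGA-DT. The cause was not tested. The median level of the 8 genes in deleted cells, 2.62% of WT, ranged from 2.31% to 2.92%.

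Same-numbered replicates correlated in their deviations from the group means with r = 0.43 between WT and HERVH element deleted, 0.29 between WT and HERVH knockdown and 0.30 between knockdown and deleted cells, and with r = -0.23, -0.12 and -0.23 between CHD7 knockout cells and WT, knockdown and deleted cells. The labels name no shared batch or day, and with 2 numbers these values do not settle whether the numbers pair the samples. Under a block for the replicate number, the counts of silenced genes called were 1, 0 and 2, as without it, and with the CHD7 knockout numbers crossed, an alternative chosen after seeing the data, they were 1 and 2 in the comparisons with these cells. Depth limits the genes with low counts most: the loss of NCR1 and PWWP3B could be given only as a bound. No outlier test was made in groups of 2.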
